A study of Mus musculus with 12 samples.

Results

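Glycolysis splits glucose to pyruvate, and 10 genes that encode its enzymes were followed through the mouse retina RNA-seq data: Hk1, Hk2, Pfkl, Pfkp, Aldoa, Aldoc, Pgk1, Eno1, Pkm and Ldha. They were taken by exact match of these symbols to the gene name column, a rule that uses no measured value, although the set was proposed with earlier results of these data known. They are 10 of the 55487 genes listed. The symbol Aldoa stands on 2 Ensembl entries, so that 11 entries carry the 10 names. The entry with the higher mean was used as Aldoa, and the second entry lay between 0 and 5.71 FPKM. All 10 passed the filter on low values, a mean above 1 FPKM in at least 1 group, which left 16471 genes to test. FPKM is a level of fragments already divided by transcript length and by the library total.

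The 12 RNA-seq libraries of retina fell into 6 groups of 2. The WT groups were adult C57BL/6J mice whose eyes received 1 µL of PBS or 1 µL of 40 mM NMDA (40 nmol), an agonist of ionotropic glutamate receptors that kills retinal neurons by overexcitation. The shPax6 groups were wild type mice infected with an AAV2.7m8 vector in which the U6 promoter drives a short hairpin RNA against Pax6 beside GFP, followed by PBS or NMDA. The JNK3 KO groups were Jnk3-/- mice, which lack the stress kinase JNK3 in every cell, again with PBS or NMDA. Every eye was thus injected, and the response to NMDA was read within each genotype against its own PBS group. A library pooled more than 3 retinas, no library of the shScramble vector is among the 12, and the effects of the vector and of the knockdown therefore cannot be told apart. The study calls the libraries of a group biological replicates without saying which animals each pool held, and a p-value here measures the spread between these pools.

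Photoreceptors are known for aerobic glycolysis: they turn most of their glucose into lactate even in the presence of oxygen. Hexokinases (Hk1, Hk2) trap glucose as glucose 6-phosphate, and Hk2 is the form known from photoreceptors, while Hk1 is found throughout the retina. Phosphofructokinases (Pfkl, Pfkp) catalyse the committed step, and aldolases (Aldoa, Aldoc) split the sugar, Aldoc being the brain form that marks astrocytes and Müller glia. Phosphoglycerate kinase (Pgk1) and pyruvate kinase (Pkm) yield ATP, enolase (Eno1) acts between them, and lactate dehydrogenase A (Ldha) reduces pyruvate to lactate. Many of these genes are textbook targets of hypoxia-inducible factor (HIF), which binds promoters at a short core with the letters ACGTG or GCGTG.

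Pkm gives 2 pyruvate kinases that differ in 1 mutually exclusive exon, and the promoters of Ldha, Pgk1, Hk2 and Aldoa carry the HIF core, so these sequences are shown first. The Pkm exons were read from the GRCm38 genome, 5′ to 3′, with the bases at which they differ in capitals. Transcript Pkm-201 uses the M2 exon (PKM2) and transcript Pkm-202 the M1 exon (PKM1).
Pkm-201 exon 9, chr9:59675568-59675734 (+): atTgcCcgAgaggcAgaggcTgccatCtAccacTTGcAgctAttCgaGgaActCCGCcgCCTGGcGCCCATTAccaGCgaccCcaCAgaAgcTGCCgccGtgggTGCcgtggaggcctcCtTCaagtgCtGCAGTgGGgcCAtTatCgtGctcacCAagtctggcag
Pkm-202 exon 9, chr9:59675029-59675195 (+): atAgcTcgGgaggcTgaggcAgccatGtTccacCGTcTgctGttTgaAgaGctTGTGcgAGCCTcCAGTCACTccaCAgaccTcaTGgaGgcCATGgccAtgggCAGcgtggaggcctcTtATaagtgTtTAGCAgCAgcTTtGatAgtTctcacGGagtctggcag
Each is the exon numbered 9 of its transcript, has 167 bases and is wholly coding, and the pair differ at 64 positions (61.7% identical).

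The promoters below are the 250 bases before the RefSeq start of the gene on GRCm38.p6, read 5′ to 3′ on the gene's strand. Capitals mark ACGTG or GCGTG on either strand (CACGT or CACGC when read on the other strand), and the palindrome CACGTG counts as 2 overlapping matches.
Ldha promoter, chr7:46845554-46845803 (+): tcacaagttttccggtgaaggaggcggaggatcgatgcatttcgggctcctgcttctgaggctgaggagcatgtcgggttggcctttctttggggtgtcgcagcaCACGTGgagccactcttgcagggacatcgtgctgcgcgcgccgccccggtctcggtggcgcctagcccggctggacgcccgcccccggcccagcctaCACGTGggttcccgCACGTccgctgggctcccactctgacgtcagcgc
Pgk1 promoter, chrX:106186850-106187099 (+): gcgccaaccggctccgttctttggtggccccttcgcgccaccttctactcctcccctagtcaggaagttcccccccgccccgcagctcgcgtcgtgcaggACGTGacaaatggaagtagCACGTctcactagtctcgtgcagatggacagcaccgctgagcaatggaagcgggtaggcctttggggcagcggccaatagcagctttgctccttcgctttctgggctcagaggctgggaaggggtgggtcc
Hk2 promoter, chr6:82774455-82774704 (-): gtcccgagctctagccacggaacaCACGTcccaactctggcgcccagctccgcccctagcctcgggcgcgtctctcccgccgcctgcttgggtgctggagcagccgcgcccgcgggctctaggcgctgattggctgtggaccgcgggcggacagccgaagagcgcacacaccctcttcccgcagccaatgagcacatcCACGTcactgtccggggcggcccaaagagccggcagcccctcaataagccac
Aldoa promoter, chr7:126799255-126799504 (-): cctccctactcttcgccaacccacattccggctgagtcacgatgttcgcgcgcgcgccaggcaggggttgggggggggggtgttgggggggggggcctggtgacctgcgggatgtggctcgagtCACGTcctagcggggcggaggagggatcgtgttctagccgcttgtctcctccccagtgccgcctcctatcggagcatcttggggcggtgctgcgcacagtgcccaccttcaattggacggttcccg
Promoters with bases in an annotated exon are not shown, nor is that of Eno1, whose RefSeq start lies away from its main transcript. Ldha held 5 matches, Hk1 and Pfkp 3 each, Pgk1 and Hk2 2 each, and Aldoa, Aldoc, Pfkl and Eno1 1 each. The core was present in 9 of the 10 promoters (90%), Pkm being the one without it. It was present in 38.6% of all 32851 promoters of that length and in 53.6% of the 14824 promoters of genes tested here. A match is a description of letters and was not tested for binding. The Hk1 promoter of RefSeq lies 17941 bases from the start of its most abundant transcript, and those of Eno1 and Pkm 244 and 208 bases.

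The WT NMDA libraries stood apart from the other 10 before any gene was compared. Their FPKM summed to 805627 and 820180, against 541210 to 576922 in the others. Transcripts under 1 kb took 53.3% and 54.5% of that sum, against 38.3% to 40.8%. The log2 response of WT to NMDA ran with gene length, with a median of 1.03 among the shortest genes (under 1 kb), 0.52 at 1 to 2 kb, -0.32 at 2 to 4 kb and -1.17 above 4 kb. The same medians ran from 0.20 to -0.07 in shPax6 and from -0.11 to 0.16 in JNK3 KO. The results of the 10 genes that rest on the WT NMDA libraries are therefore given with other scalings. The FPKM fold changes within shPax6 and JNK3 KO do not use these libraries. Their standard errors, p-values and calls do, because the filter, the intensity trend and the spread were taken over all groups. With the WT NMDA libraries left out of the fit, 8 of the 10 genes were called in shPax6 and 8 in JNK3 KO. As a check of the labels, Pax6 stood at 94.6 and 92.8 FPKM in shPax6 PBS against 173 and 177 in WT PBS, and Mapk10, which encodes JNK3, at 9.47 and 8.75 FPKM in JNK3 KO PBS against 42.8 and 50.7. After NMDA Pax6 measured 55.4 and 53.8 FPKM in WT against 67.5 and 58.7 in shPax6, so that the knockdown did not show as a lower Pax6 level there. Mapk10 measured 8.98 and 6 FPKM in WT NMDA against 6.65 and 13.8 in JNK3 KO NMDA, so that it told those groups apart under PBS and not under NMDA.

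**Figure D1:**
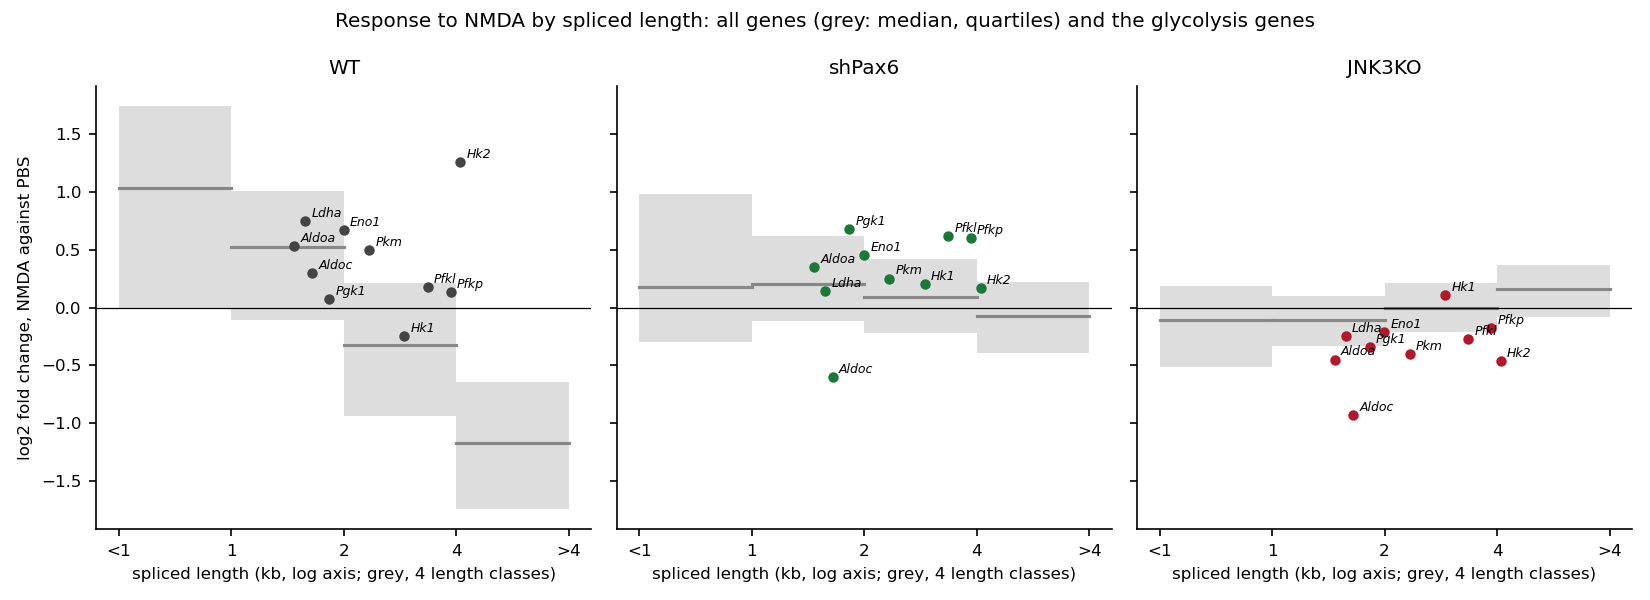
Response to NMDA by gene length in WT, shPax6 and JNK3 KO: the x axis is spliced length in kb on a log scale and the y axis the log2 fold change of NMDA against PBS, with the median (line) and quartiles (grey) of all genes in 4 length classes and a point for each of the 10 glycolysis genes. The WT medians fall from 1.03 under 1 kb to -1.17 above 4 kb, and those of the other genotypes stay between -0.11 and 0.20.

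Under PBS in WT the pathway's levels spanned a wide range. Aldoa led with 1634 and 1666 FPKM, followed by Pkm (1349 and 1355), Eno1 (1200 and 1225), Ldha (692 and 725), Hk1 (558 and 544), Pgk1 (420 and 433), Aldoc (274 and 287), Pfkp (198 and 201), Pfkl (149 and 147) and Hk2 (82.8 and 80.1). No neighbours in that order overlapped between the 2 libraries. Replicates lay close: within a group the log2 difference of the pair reached 0.0681 at most in WT PBS, 0.266 in WT NMDA (Pfkp), 0.198 in shPax6 PBS (Pfkl), 0.271 in shPax6 NMDA (Hk2), 0.138 in JNK3 KO PBS (Pfkp) and 0.114 in JNK3 KO NMDA (Pfkp).

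**Figure D2:**
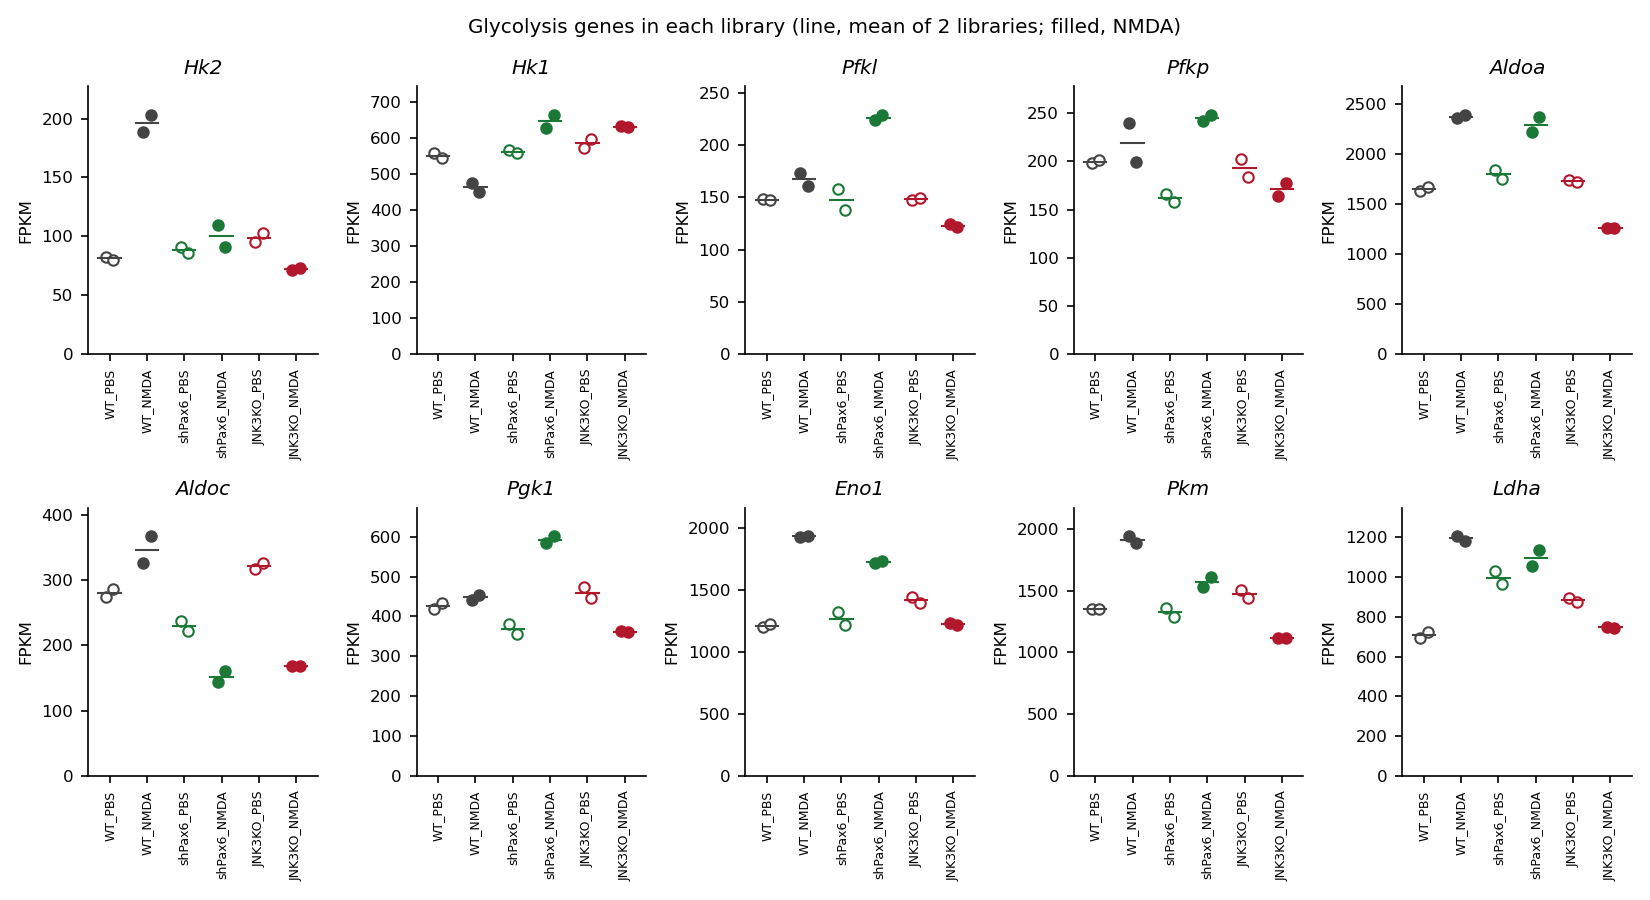
Level of each of the 10 glycolysis genes in the 12 libraries: 1 panel per gene, FPKM on a y axis that starts at 0, the 6 groups on the x axis, a point per library and a bar at the mean of the 2. In JNK3 KO the NMDA points of Aldoc, Hk2, Aldoa, Pkm and Pgk1 lie below the PBS points, while in WT the Hk2, Aldoa, Eno1, Pkm and Ldha points lie above them.

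In the JNK3 KO retina, glycolysis genes fell together after NMDA. Of the 10 genes 8 fell and 0 rose (limma, adjusted p under 0.05), where 6.1% of all genes tested fell and 4.33% rose. At an unadjusted p under 0.05, 8 were lower and 1, Hk1, was higher. The median log2 fold change was -0.31, against -0.01 over all genes. Aldoc, the brain aldolase, fell most: its PBS libraries held 316 and 327 FPKM and its NMDA libraries 169 and 169, a log2 fold change of -0.93 ± 0.07 (SE, n = 2 against 2, adjusted p = 0.000144). The groups were far apart, and the same direction held for its partner Aldoa, which went from 1742 and 1720 to 1265 and 1264 FPKM (-0.45 ± 0.04, adjusted p = 0.000318). Pkm, the ATP-yielding last step to pyruvate, went from 1504 and 1444 to 1120 and 1120 FPKM (-0.40 ± 0.04, adjusted p = 0.000711). Pgk1, the other ATP-yielding step, went from 473 and 445 to 363 and 361 FPKM (-0.34 ± 0.05, adjusted p = 0.00291). In none of these 4 genes did a PBS library reach down to an NMDA library. Separation of 2 against 2 libraries is a description here and below, and its share over all genes was not counted.

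Hk2, Pfkl, Eno1 and Ldha fell in JNK3 KO as well, with larger adjusted p. Hk2 went from 95.1 and 103 to 71.2 and 72.8 FPKM (-0.46 ± 0.09, adjusted p = 0.0128), and Pfkl from 148 and 149 to 124 and 122 FPKM (-0.27 ± 0.07, adjusted p = 0.0341). Eno1 went from 1442 and 1393 to 1231 and 1218 FPKM (-0.21 ± 0.04, adjusted p = 0.016), and Ldha from 897 and 873 to 749 and 744 FPKM (-0.25 ± 0.05, adjusted p = 0.0145). The PBS and NMDA libraries of these genes did not overlap. Hk1 was the exception to the direction, with 571 and 599 FPKM under PBS and 632 and 631 under NMDA (0.11, adjusted p = 0.162), and Pfkp did not pass the test (203 and 184 to 164 and 178 FPKM, -0.18, adjusted p = 0.257). With any 1 of the 4 JNK3 KO libraries left out the count was 4: Aldoa, Aldoc, Pgk1 and Pkm kept their calls, and Hk2, Pfkl, Eno1 and Ldha lost theirs, with adjusted p of 0.0509 to 0.185. The direction of these 8 genes held under each rescaling tried except for Eno1, which stood at 0.02 under quantile normalization, where 3 genes were called.

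In the shPax6 retina, most glycolysis genes rose after NMDA and Aldoc fell. Of the 10 genes 7 rose and 1 fell, where 19.1% of all genes tested rose and 11% fell, and the median was 0.30 against 0.10 over all genes. Pgk1 rose most, from 382 and 357 FPKM under PBS to 584 and 602 under NMDA (0.68 ± 0.05, adjusted p = 1.39e-05). Both phosphofructokinases followed. Pfkl went from 158 and 138 to 224 and 229 FPKM (0.62 ± 0.07, adjusted p = 0.000171), and Pfkp from 166 and 157 to 242 and 248 FPKM (0.60 ± 0.09, adjusted p = 0.000882). Eno1 went from 1321 and 1217 to 1716 and 1739 FPKM (0.45 ± 0.04, adjusted p = 8.4e-05), Aldoa from 1844 and 1755 to 2218 and 2371 FPKM (0.35 ± 0.04, adjusted p = 0.000281). In these 5 genes both NMDA libraries lay above both PBS libraries. Pkm (0.25 ± 0.04, adjusted p = 0.00228) and Hk1 (0.20 ± 0.04, adjusted p = 0.00857) rose by less, also without overlap, although Hk1 stood at -0.04 under quantile normalization.

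Aldoc went the other way in shPax6, from 238 and 222 FPKM to 143 and 161 (-0.60 ± 0.07, adjusted p = 0.000374). It fell in both shPax6 and JNK3 KO, unlike its partner aldolase. Ldha (1030 and 964 to 1058 and 1135 FPKM, 0.14, adjusted p = 0.0636, and -0.11 under quantile normalization) and Hk2 (91.1 and 86.3 to 110 and 91.0 FPKM, 0.17, adjusted p = 0.176) did not pass the test. The 2 shPax6 NMDA libraries differed on Hk2: without NMDA replicate 2 its value was 0.31 (adjusted p = 0.0174). Ldha passed without PBS replicate 1 (0.18, adjusted p = 0.0442) or without NMDA replicate 1 (0.19, adjusted p = 0.0424). When the spread was estimated from the 4 shPax6 libraries alone, 2 of the 10 genes, both higher, were called in place of 8.

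**Figure D3:**
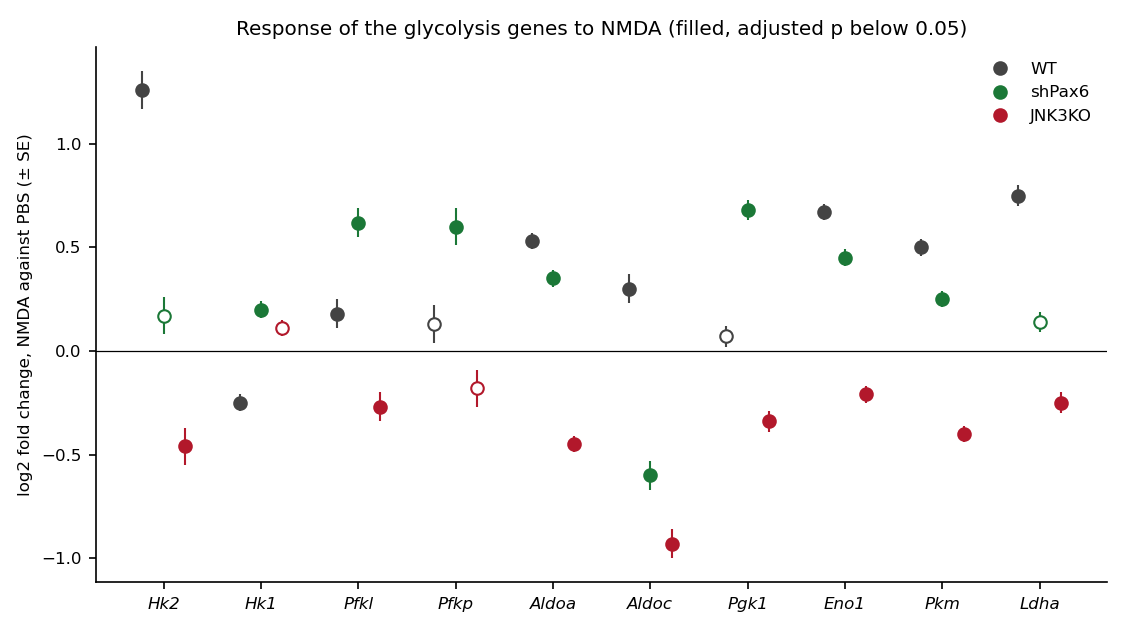
Log2 fold change of NMDA against PBS for the 10 glycolysis genes in WT, shPax6 and JNK3 KO: genes in pathway order on the x axis, log2 fold change on the log2(FPKM + 0.1) scale on the y axis, bars of 1 standard error, points filled where the adjusted p was below 0.05. The JNK3 KO points lie below 0 except for Hk1 (0.11), the shPax6 points above 0 except for Aldoc (-0.60), and the WT point of Hk2 (1.26) is the highest.

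In WT, 7 of the 10 genes rose on the FPKM scale and 1 fell, where 26% of all genes tested rose and 33.8% fell, and the median was 0.40 against -0.09 over all genes. Hk2 went from 82.8 and 80.1 FPKM to 188 and 203 (1.26 ± 0.09, adjusted p = 2.5e-06). Of its NMDA value 81.9% and 83.9% lay in the short transcript Hk2-202, while the full-length Hk2-201 fell (-1.28 on the FPKM scale), as given below. Ldha, which makes lactate, went from 692 and 725 to 1206 and 1184 FPKM (0.75 ± 0.05, adjusted p = 1.57e-06). Eno1 went from 1200 and 1225 to 1933 and 1936 FPKM (0.67 ± 0.04, adjusted p = 1.44e-06). All 3 genes were clear of the PBS libraries in both NMDA libraries. Aldoa went from 1634 and 1666 to 2356 and 2393 FPKM (0.53 ± 0.04, adjusted p = 5.14e-06), and Pkm from 1349 and 1355 to 1942 and 1885 FPKM (0.50 ± 0.04, adjusted p = 8.11e-06). Hk1 went the other way, from 558 and 544 to 475 and 451 FPKM (-0.25 ± 0.04, adjusted p = 0.000958). Pgk1 (0.07, adjusted p = 0.236) and Pfkp (0.13, adjusted p = 0.225) did not pass the test. By a fold rule taken in part from the study (an unadjusted p under 0.05 with a log2 fold change past 1, run here on genes with limma and without its criterion on the ratio of variance to mean), Hk2 in WT was the 1 call among the 10 genes in the 3 responses, where that rule called 35.3% of all genes in WT, 15.2% in shPax6 and 4.18% in JNK3 KO.

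Smaller WT calls leaned on single libraries. Aldoc (0.30, adjusted p = 0.00594) stood at 0.22 (adjusted p = 0.0514) without NMDA replicate 2. Pfkl (0.18, adjusted p = 0.046) lost its call without PBS replicate 1 (0.18, adjusted p = 0.118), without PBS replicate 2 (0.17, adjusted p = 0.145) or without NMDA replicate 1 (0.12, adjusted p = 0.236). Pfkp gained one without NMDA replicate 2 (0.26, adjusted p = 0.0208).

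The direction of the WT response depended on how the libraries were scaled, and that of shPax6 and JNK3 KO did so for fewer genes. Under quantile normalization Hk1 (-0.04) and Ldha (-0.11) turned in shPax6 and Eno1 (0.02) in JNK3 KO. Ldha in shPax6 turned after the length correction as well (-0.07). Rescaling each library to a common sum (TPM) moved the median of all genes in WT from -0.09 to -0.66, and then 3 of the 10 genes, Hk2 (0.69), Ldha (0.18) and Eno1 (0.10), were higher and 5 lower, with a median of -0.17. On these scales the median of the 10 genes lay above that of all genes, and under quantile normalization below it (-0.67 against 0). Quantile normalization left 1 higher (Hk2, 0.60) and 9 lower, scaling to a common 75th percentile 6 higher and 1 lower, and correction for gene length 7 higher and 1 lower. In JNK3 KO the same 4 settings gave 0 higher and 8, 3, 8 and 7 lower, in the order TPM, quantile, 75th percentile and length. In shPax6 they gave 6, 6, 6 and 5 higher, each with 1 lower.

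**Figure D4:**
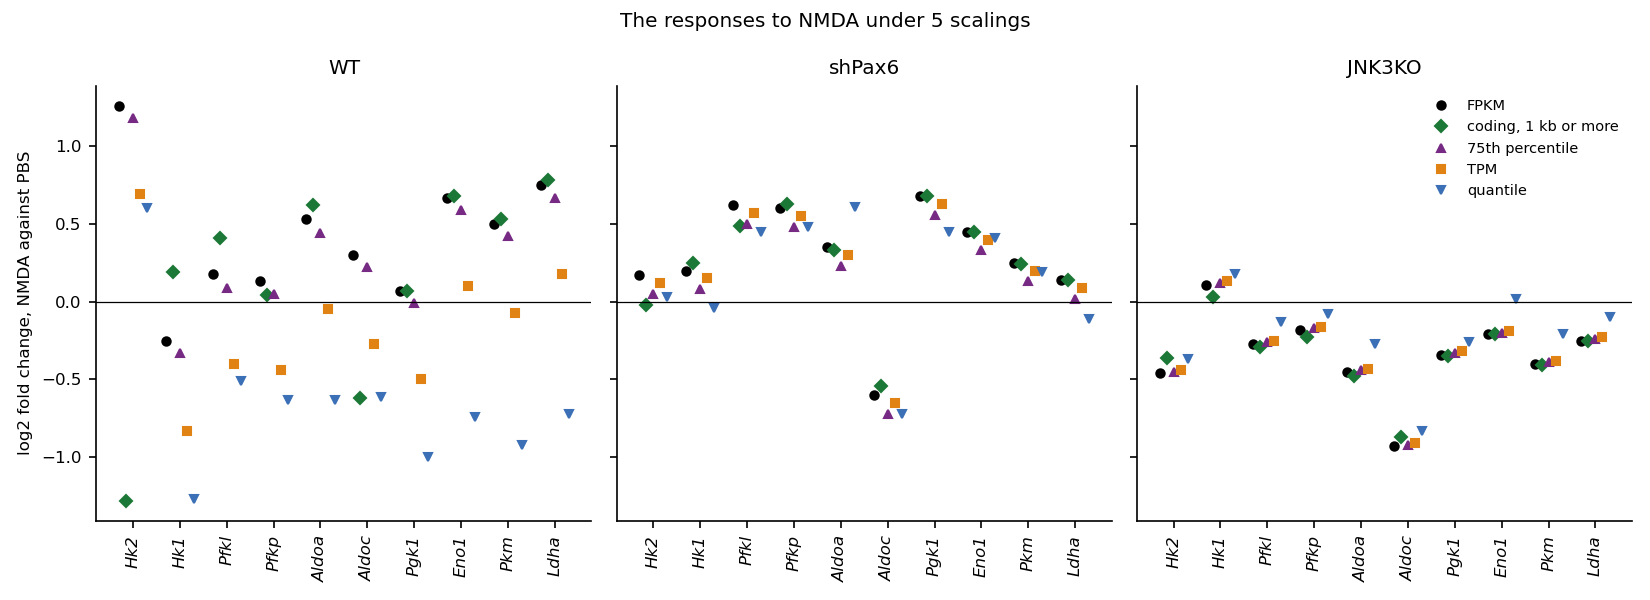
Log2 fold change of NMDA against PBS under 5 scalings, in 3 panels for WT, shPax6 and JNK3 KO: the 10 genes are on the x axis, and the marker shape gives FPKM, coding transcripts of 1 kb or more, a common 75th percentile, TPM or quantile normalization. The WT median moves from 0.40 (FPKM) to -0.17 (TPM) and -0.67 (quantile), while the shPax6 median stays between 0.18 and 0.30 and the JNK3 KO median between -0.32 and -0.17.

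The WT rise of Hk2 lay in a short transcript. The estimates are per transcript, and overlapping transcripts share reads that the counting software divides, so each is an estimate. Of the 103 transcripts of the 10 genes 22 carried at least 10% of their gene in some group. Hk2-201, the full-length transcript of 5513 bases, measured 82.4 and 80.1 FPKM under PBS in WT against 34.1 and 32.8 under NMDA (-1.28 ± 0.05, adjusted p = 1.79e-06). Hk2-202, a processed transcript of 594 bases that lies wholly within the last exon of Hk2-201 (chr6:82725062-82726309, minus strand, GRCm38), was listed at 0 under PBS in WT, while NMDA gave 154 and 170 FPKM, 81.9% and 83.9% of the gene. The gene thus rose while its full-length transcript fell, although Hk2-201 stood at 0.22 after the length correction. In shPax6 NMDA, Hk2-202 was at 25.2 and 1.65 FPKM, the same pair of libraries that differed on the gene, and Hk2-201 had a log2 fold change of 0.01. In JNK3 KO, Hk2-201 fell by 0.36 (adjusted p = 0.0232) and Hk2-202 went from 4.56 and 8.11 FPKM to 0 and 0.

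The same was seen in WT for Aldoc, and the reverse for Hk1. Aldoc-202, the main transcript, had 239 and 248 FPKM under PBS in WT and 171 and 164 under NMDA (-0.54), and it fell in shPax6 (-0.52) and JNK3 KO (-0.85) as well, each past the threshold. Aldoc-206, a processed transcript of 706 bases with 63.3% of them in the last exon of Aldoc-202, went from 0 and 3.89 to 142 and 193 FPKM in WT. The main Aldoc transcript therefore fell in all 3 genotypes, while the gene fell in 2. Hk1-201 had 213 and 221 FPKM under PBS in WT and 388 and 367 under NMDA (0.80), while the short Hk1-212 of 896 bases went from 176 and 160 to 27.4 and 25 FPKM (-2.68) and Hk1-205 from 97.5 and 100.4 FPKM to 0 in both. For Pfkp, the 550 bases of Pfkp-209 near the gene's 3′ end went from 0 and 0.87 to 48.4 and 18.3 FPKM, and the retained intron transcript Pfkp-212, which stops short of that end, went from 58.4 and 55.3 to 7.61 and 7.39 FPKM (-2.91). Under quantile normalization Hk1-201 stood at -0.38.

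With the sum restricted to coding transcripts of at least 1 kb, 6 of the 10 genes rose and 2 fell in WT (median 0.30, against -0.30 over 12468 genes). Hk2 (-1.28), Aldoc (-0.62) and Hk1 (0.19) changed direction there, and Aldoa (0.62), Eno1 (0.68), Pkm (0.53) and Ldha (0.78) did not. On this sum shPax6 had 8 higher and 1 lower, and JNK3 KO 0 higher and 8 lower. Over the 22 transcripts, 10 were called higher and 7 lower in WT, where 11.7% and 23.5% of all transcripts tested were. In shPax6 11 were higher and 1 lower (4.71% and 3.63% of all), and in JNK3 KO 0 higher and 7 lower (0.537% and 0.775%).

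The M2 form of pyruvate kinase gained on the M1 form after NMDA in each genotype. Pkm-201, with the M2 exon shown above, went from 901 and 925 FPKM in WT PBS to 1804 and 1790 in WT NMDA (0.98), and Pkm-202, with the M1 exon, from 408 and 403 to 125 and 89.0 FPKM (-1.94). Pkm-201 stood at -0.45 under quantile normalization. Pkm-201 thus took 66.8% and 68.2% of the gene under PBS and 92.9% and 95% under NMDA. In shPax6 Pkm-201 rose (0.38) while Pkm-202 did not pass the test (-0.32, adjusted p = 0.329), and in JNK3 KO Pkm-201 fell (-0.31) and Pkm-202 did not pass (-0.72, adjusted p = 0.105). The log2 ratio of Pkm-201 to Pkm-202 went from 1.14 and 1.20 to 3.85 and 4.33 in WT. It went from 1.63 and 1.72 to 2.55 and 2.19 in shPax6, and from 1.49 and 1.52 to 1.93 and 1.89 in JNK3 KO. The ratio within a library does not change when the library is multiplied by a constant, and the NMDA libraries lay above the PBS libraries in all 3 genotypes, although the difference in ratio was not tested.

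**Figure D5:**
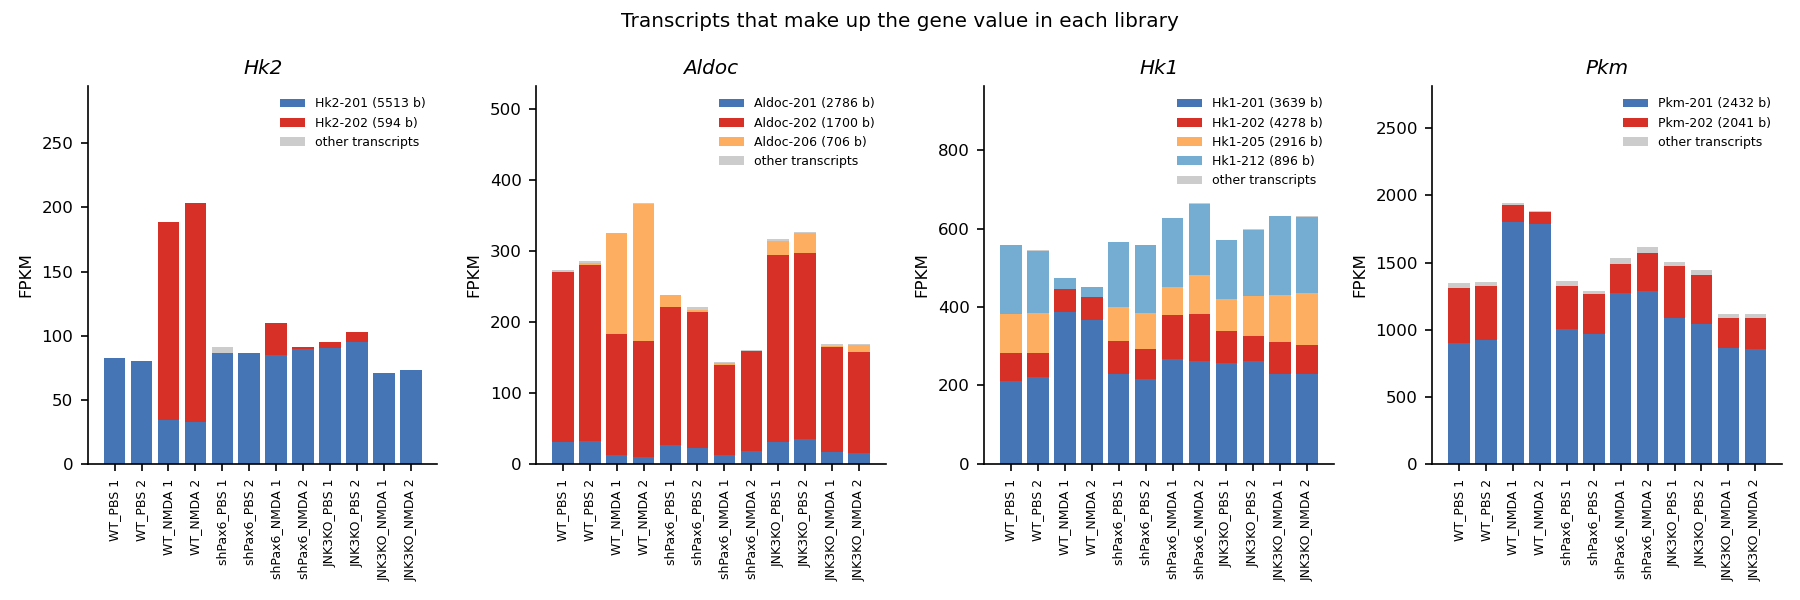
Transcripts that make up Hk2, Aldoc, Hk1 and Pkm in the 12 libraries: the libraries are on the x axis, FPKM on a y axis that starts at 0, and the coloured parts of a bar are the transcripts, stacked to the gene value. In WT NMDA Hk2-202 stands at 154 and 170 where it is 0 in WT PBS, Hk2-201 at 34.1 and 32.8, and Pkm-202 at 125 and 89.0.

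Before NMDA, the genotypes differed in few of these genes. Against WT PBS, shPax6 PBS was higher in 1 gene and lower in 3, where 5.36% of all genes tested were higher and 11.2% lower. Ldha was higher, with 1030 and 964 FPKM against 692 and 725 (0.49, adjusted p = 0.000236). Lower were Pfkp, with 166 and 157 FPKM against 198 and 201 (-0.31, adjusted p = 0.0424), Aldoc (-0.29, adjusted p = 0.0297) and Pgk1 (-0.21, adjusted p = 0.0186). Leaving out any 1 of the 4 libraries left 1 or 2 calls: Ldha stayed called in each case, and Pgk1 without shPax6 PBS replicate 1. JNK3 KO PBS was higher than WT PBS in 2 genes and lower in 0, where 1.1% and 0.407% of all genes were. These were Ldha (897 and 873 FPKM, 0.32, adjusted p = 0.0206) and Eno1 (1442 and 1393 FPKM, 0.22, adjusted p = 0.0428), the latter at -0.03 under quantile normalization. At an unadjusted p under 0.05, 5 genes were higher and 0 lower in limma, and with any 1 of the 4 libraries left out no call was left (adjusted p from 0.0747 to 0.299). Ldha was thus higher than in WT in both genotypes, which share the WT PBS libraries as the base of the comparison.

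Whether the response to NMDA differed between genotypes was tested by the difference of the responses. The comparison of shPax6 minus JNK3 KO was chosen after seeing the data, including the 2 responses, so its counts and p-values are no independent support. Its 2 sides share no library, and they differ by the vector as well as by the gene. There 8 of the 10 genes responded more positively in shPax6 and 0 more negatively, where 12.1% and 5.62% of all genes did. At an unadjusted p under 0.05 the limma counts were 9 and 0. Pgk1 differed most, by 1.03 (SE 0.07, adjusted p = 2.95e-05). The other differences were 0.89 for Pfkl, 0.80 for Aldoa, 0.78 for Pfkp, 0.66 for Eno1, 0.64 for Pkm, 0.63 for Hk2 and 0.38 for Ldha, the last at -0.01 under quantile normalization. Aldoc (0.33, adjusted p = 0.0594) and Hk1 (0.09) did not pass the test, and Aldoc passed without shPax6 NMDA replicate 1 (0.42, adjusted p = 0.0353). The median was 0.65 against 0.10 over all genes.

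The differences against the WT response share the WT libraries and rest on the WT NMDA libraries. WT minus JNK3 KO was higher in 8 genes and lower in 1, Hk1 (23.5% and 27.9% of all genes). WT minus shPax6 was higher in 6 and lower in 4 (18.3% and 31.4%). Under quantile normalization these counts were 1 higher and 8 lower in both, and under TPM 6 and 2 against JNK3 KO and 2 and 7 against shPax6. Hk2 differed most in both, by 1.72 against JNK3 KO and by 1.09 against shPax6, and on coding transcripts of at least 1 kb these values were -0.92 and -1.26. Aldoa in WT minus shPax6 (0.18) lost its call without either library of WT PBS or WT NMDA, without shPax6 PBS replicate 1 and without shPax6 NMDA replicate 1, with values of 0.13 to 0.19 (adjusted p from 0.0625 to 0.113).

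The rest of the glycolysis list held 19 further enzymes, of which 14 passed the filter. In JNK3 KO 7 of the 14 fell and 1 rose (median -0.38), in shPax6 6 rose and 2 fell (0.17), and in WT 9 rose and 2 fell (0.54). Gapdh, which makes the first NADH of the pathway, went from 2727 and 2626 to 2166 and 2119 FPKM in JNK3 KO (-0.32), from 2471 and 2347 to 2865 and 3136 in shPax6 (0.32) and from 2430 and 2493 to 4375 and 4559 in WT (0.86). Its groups did not overlap in any genotype, and the same signs held for the isomerases Gpi1 (-0.40, 0.30 and 0.68) and Tpi1 (-0.36, 0.41 and 0.57) and the mutase Pgam1 (-0.34, 0.26 and 0.29), in the order JNK3 KO, shPax6 and WT, each past the threshold. Ldhb, the lactate dehydrogenase that favours pyruvate, fell in JNK3 KO (-0.88, 167 and 160 to 88.7 and 88.6 FPKM) and shPax6 (-0.61) and rose in WT (0.55). Pfkm, the muscle phosphofructokinase, fell in JNK3 KO (-0.45), shPax6 (-0.47) and WT (-0.37). Eno2, the enolase of neurons, fell in JNK3 KO (-0.34) and WT (-0.20) and did not pass in shPax6 (-0.07). Hkdc1, a hexokinase-like gene at 2.39 to 12.1 FPKM over the 12 libraries, rose in JNK3 KO (1.3) and shPax6 (1.98) and did not pass in WT (0.34). Bpgm, which makes 2,3-bisphosphoglycerate (0.53), and Eno3, the enolase of muscle (1.3), rose in WT and did not pass in the other genotypes. In WT the list had 3 higher and 3 lower under TPM and 4 and 5 under quantile normalization, and in shPax6 3 and 3 after the length correction. Of 5 near-identical copies of the 10 genes, whose reads could be mistaken for theirs, Eno1b passed the filter and was not called in the 3 responses.

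Ratios between isozymes of 1 library do not change when that library is multiplied by a constant, as under TPM, but can change under quantile normalization, after the length correction or when other transcripts are summed. The log2 ratio of Hk2 to Hk1 went from -2.59 and -2.54 to -3.15 and -3.12 in JNK3 KO, stayed between -2.87 and -2.52 in shPax6 and went from -2.75 and -2.76 to -1.33 and -1.15 in WT. On coding transcripts of at least 1 kb the WT response was -1.28 for Hk2 and 0.19 for Hk1, so that this rise turned to a fall. The ratio of Aldoc to Aldoa went from -2.46 and -2.40 to -2.90 and -2.90 in JNK3 KO, from -2.95 and -2.98 to -3.95 and -3.88 in shPax6 and from -2.58 and -2.54 to -2.86 and -2.70 in WT, so that Aldoc lost ground to Aldoa after NMDA in all 3 on the FPKM scale. Under quantile normalization the WT responses were -0.61 for Aldoc and -0.63 for Aldoa, without that fall. Ldha gained on Ldhb in all 3 as well, from 2.42 and 2.45 to 3.08 and 3.07 in JNK3 KO, from 3.11 and 3.18 to 3.81 and 3.98 in shPax6 and from 2.23 and 2.19 to 2.50 and 2.32 in WT. Eno2 lost ground to Eno1 in all 3, from -2.02 and -1.95 to -2.13 and -2.08 in JNK3 KO, from -2.09 and -2.05 to -2.70 and -2.47 in shPax6 and from -1.67 and -1.72 to -2.57 in both WT libraries. Pfkp to Pfkl showed no such order, between 0.07 and 0.19 in shPax6 and between 0.31 and 0.54 elsewhere. These ratios are descriptions with no test.

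Of the pathways around glycolysis, HIF targets that are not glycolytic enzymes rose in shPax6, where 10 of 14 were called higher and 0 lower, with a median of 0.52. Under the other scalings 7 to 12 were higher and 0 lower. Higd1a, a mitochondrial protein of hypoxia, went from 60.7 and 60.6 to 116 and 125 FPKM (0.99, adjusted p = 3.92e-05), and Egln3, a HIF prolyl hydroxylase, from 1.52 and 0.98 to 15.1 and 13.6 FPKM (3.44, adjusted p = 5.15e-05). In JNK3 KO 0 rose and 2 fell, Bnip3 (-0.50) and Ndrg1 (-0.23), and in WT 2 rose and 7 fell (median -0.37). The rise of Higd1a was not particular to shPax6, since in WT it went from 72.8 and 83.9 to 177 and 185 FPKM. Egln3 in WT measured 2.38 and 2.13 FPKM under PBS and 1.86 and 2.44 under NMDA. The list of 8 HIF regulators also held Myc, a transcription factor listed beside the genes of the HIF pathway itself. Myc rose in all 3 responses (2.84 in WT, 2.97 in shPax6 and 2.19 in JNK3 KO). Hif1a fell in WT (-1.78) and shPax6 (-0.25) and rose in JNK3 KO (0.32). With Myc included, that list counted 2 higher and 4 lower in WT (4 higher and 2 lower after the length correction), 3 and 1 in shPax6, and 2 and 0 in JNK3 KO.

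Glucose and lactate transport (9 genes tested) had 2 higher and 4 lower in WT, 3 and 3 in shPax6 and 0 and 2 in JNK3 KO. Slc2a1, the glucose transporter GLUT1, went from 80.7 and 74.3 to 155 and 146 FPKM in shPax6 (0.96, adjusted p = 8.77e-06), and Slc16a3, a lactate exporter, from 34.9 and 30.4 to 68.4 and 63.4 FPKM (1.01, adjusted p = 5.08e-05). Slc2a3, the neuronal glucose transporter, fell in WT (-1.30) and JNK3 KO (-0.58). Regulators of glycolysis (11 tested) had 2 higher and 7 lower in WT, 3 and 2 in shPax6 and 0 of either in JNK3 KO, and Pfkfb3, which makes the activator of phosphofructokinase, rose in shPax6 (1.04, adjusted p = 0.00327). Pyruvate entry into mitochondria (8 tested) had 2 higher and 4 lower in WT, 0 and 1 in shPax6 and 0 and 1 in JNK3 KO, Mpc1 falling in the last pair (-0.38 and -0.28). The tricarboxylic acid cycle (16 tested) had 9 and 4 in WT (4 and 7 under TPM, 5 and 8 under quantile normalization), 4 and 1 in shPax6 (1 and 2 under quantile normalization and under a common 75th percentile, 0 and 1 after the length correction) and 0 and 1 in JNK3 KO, the last being Idh3b (-0.18). The pentose phosphate pathway (7 tested) had 5 and 1, 3 and 1, and 0 and 0. Glycogen and gluconeogenesis (11 tested) had 3 and 3, 6 and 0, and 0 and 0, each in the order WT, shPax6 and JNK3 KO. In WT the pentose phosphate counts were 2 and 2 under TPM, those of glycogen 2 and 7 under TPM and 4 and 1 after the length correction, and those of transport 3 and 2 after it. In shPax6 the pentose phosphate counts were 1 and 2 after the length correction. All these counts, and those of the further glycolytic enzymes and HIF lists above, stand beside 26% higher and 33.8% lower over all genes in WT. The shares over all genes were 19.1% and 11% in shPax6 and 4.33% and 6.1% in JNK3 KO, and no list was tested against these shares.

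Photoreceptor markers moved beside these genes in bulk tissue, where fewer cells of a type and less RNA per cell cannot be told apart. Of 9 rod markers 7 fell and 0 rose after NMDA in JNK3 KO (median -0.39), with summed levels of 28420 and 27680 FPKM under PBS and 23510 and 23380 under NMDA. In shPax6 8 fell and 1 rose (median -0.70, 38300 and 35400 to 21730 and 22160 FPKM), while most of the 10 glycolysis genes rose, and in WT 2 fell and 5 rose (26700 and 26910 to 28570 and 28490 FPKM). The WT count turned to 6 lower and 1 higher under TPM and to 7 lower and 2 higher under quantile normalization. Of 8 cone markers 6 fell in JNK3 KO, 8 in shPax6 and 4 in WT, where 1 rose. Under PBS, 9 of 9 rod markers were higher in shPax6 than in WT and 6 in JNK3 KO. Other cell types differed under PBS in shPax6 too, among them 7 of 8 cone and 4 of 8 microglia markers, which were higher. Lower there were 5 of 8 ganglion cell and 7 of 8 infiltrating myeloid markers. In JNK3 KO 0 cone, microglia or ganglion cell markers were called under PBS, and 2 myeloid markers were lower. Over all genes tested 5.36% were higher and 11.2% lower under PBS in shPax6, and 1.1% and 0.407% in JNK3 KO. For the response counts here and in the next paragraph, 26% of all genes rose and 33.8% fell in WT. In shPax6 19.1% rose and 11% fell, and in JNK3 KO 4.33% and 6.1%. No marker list was tested against these shares, and the part of these markers in the results was not tested.

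Other cell types moved as well. Of 8 retinal ganglion cell markers 7 fell in WT (536 and 555 to 297 and 318 FPKM in sum), 7 in shPax6 (157 and 158 to 46.4 and 38.3) and 5 in JNK3 KO (551 and 510 to 124 and 127). Of 7 amacrine markers 7, 7 and 2 fell, of 4 horizontal cell markers 4, 1 and 0, and of 6 bipolar markers 4, 1 and 0, with 1 higher in each genotype, in the order WT, shPax6 and JNK3 KO. Müller glia, known to express Aldoc, had 4 of 8 markers higher and 1 lower in both shPax6 and JNK3 KO, where Aldoc fell, and 2 higher and 4 lower in WT. Infiltrating myeloid cells had 8 of 8 markers higher in shPax6 (50.1 and 50.4 to 409 and 417 FPKM), 5 higher and 3 lower in WT (313 and 346 to 2124 and 2164) and 2 higher and 5 lower in JNK3 KO (233 and 240 to 92.8 and 93.4). In WT the Müller count was 3 higher and 2 lower after the length correction. Microglia had 4 of 8 higher in shPax6, 3 higher and 3 lower in WT and 2 lower in JNK3 KO. Erythrocytes had 4 of 5 higher in shPax6, 5 in WT and 1 lower in JNK3 KO, and endothelium 3 of 5 higher in shPax6, 1 higher and 1 lower in WT and 1 higher in JNK3 KO. Of 3 pigment epithelium markers tested, 3 fell in shPax6, 2 rose and 1 fell in WT, and none was called in JNK3 KO. The part of these cells in the responses of the 10 genes was not tested. Of markers averaging over 10 FPKM in some group, Retnlg, Pou4f1 and Hbb-bt lay below 0.1 FPKM in at least 1 library. Weaker markers can lie below that level as well.

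The genes whose pattern over the 12 libraries was most like that of Hk2 were Pigyl (Pearson r = 0.984), Scnm1 (0.983) and Ptms (0.982), and those most like Ldha were Aipl1 (0.992), Rax (0.984) and Eml1 (0.978). Aipl1, a photoreceptor chaperone, and Rax, a homeobox factor of the retina, are genes of the same tissue. These correlations are descriptions over libraries that share groups and scaling, with no test.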

How the data were processed

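RNA-seq of 12 retina libraries was analysed from tables the authors deposited as FPKM per gene and per transcript. Per the labels and the study's methods, reverse transcription was primed with oligo-dT, libraries were made with a TruSeq mRNA kit and paired reads of 101 bases were aligned to GRCm38.p6 with STAR 2.7.1a and quantified with RSEM 1.3.3; the authors tested differences with edgeR 3.36.0. FPKM are not counts, so the depth behind a value is unknown. Precision was judged from the spread between the 2 libraries of a group, pooled over all 6 groups.

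FPKM + 0.1 was taken to log2 and fitted over 6 group means in all 12 libraries (6 residual degrees of freedom) with limma 3.58.1 in R 4.3.3, eBayes with an intensity trend. Fold changes on this scale understate those of low genes. Genes with a group mean above 1 FPKM were tested (16471 of 55487, and 49940 of 142699 transcripts), with Benjamini-Hochberg adjustment over all of them and a call at 0.05. IDs were matched to the GRCm38 annotation for 55227 genes and 141469 transcripts. Named beside the 10 genes were other glycolytic enzymes with a group mean above 10 FPKM, at most the 2 genes of smallest adjusted p per direction, response and other pathway list, and transcripts with at least 10% of their gene. In data simulated on the WT comparison over 16471 genes, the fit found 21 of 200 genes changed by 0.5 on the log2 scale and 108 of 200 changed by 1, with 6 and 4 false calls. The simulation changed 200 genes and held no trend with gene length, while in WT 26% of all genes tested were called higher and 33.8% lower. Its counts therefore do not show how many genes that comparison would miss or call falsely. The genes, pathway lists and marker lists were chosen with earlier results of these data known, and no set test was run. No 2 libraries were identical: the closest pair differed at 20020 genes.

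Alternatives were another pseudocount, other filters, TPM, a common 75th percentile, quantile normalization, a length correction, eBayes without the trend, the spread of the compared groups alone, a replicate block and leaving out each library. Sums over coding transcripts of 1 kb or more, leaving out the WT NMDA libraries and the comparison of shPax6 minus JNK3 KO were chosen after seeing the data.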

Additional observations from a re-analysis of the deposited data

Results flagged for a closer look

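The response to NMDA differed between genotypes for 27 of the pairs of gene and comparison. The call was limma's test of the difference of the responses on the log2 scale (adjusted p below 0.05). It held for 10 of the 10 genes in WT minus shPax6, 9 in WT minus JNK3 KO and 8 in shPax6 minus JNK3 KO. Over all genes tested, 18.3% were higher and 31.4% lower in the first and 23.5% and 27.9% in the second. In the third 12.1% were higher and 5.62% lower. Beyond those already given, WT minus shPax6 was -0.45 for Hk1, -0.44 for Pfkl, -0.47 for Pfkp, 0.90 for Aldoc, -0.61 for Pgk1, 0.23 for Eno1, 0.25 for Pkm and 0.62 for Ldha, beside 1.09 for Hk2 and 0.18 for Aldoa. WT minus JNK3 KO was -0.36 for Hk1, 1.72 for Hk2, 0.45 for Pfkl, 0.98 for Aldoa, 1.23 for Aldoc, 0.41 for Pgk1, 0.89 for Eno1, 0.90 for Pkm and 1.00 for Ldha. Both sets rest on the WT NMDA libraries, which stand apart. The sides of shPax6 minus JNK3 KO share no library, but this comparison was chosen after seeing the data. It was 0.63 for Hk2, 0.89 for Pfkl, 0.78 for Pfkp, 0.80 for Aldoa, 1.03 for Pgk1, 0.66 for Eno1, 0.64 for Pkm and 0.38 for Ldha.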

How the results depend on the processing

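In JNK3 KO the count of genes called after NMDA was 8 and fell to 3 under quantile normalization, 5 without the intensity trend and 4 to 4 with each library left out. In shPax6 it fell from 8 to 2 when the spread came from its own groups. Under PBS, shPax6 against WT had 4 calls, and 2 without a filter, 1 without the trend, 0 with the spread of its own groups and 1 to 2 with each library left out. JNK3 KO against WT had 2, and 0 without a filter, under quantile normalization, without the trend and with its own spread, 1 under TPM, a common 75th percentile, the length correction, the replicate block and without the WT NMDA libraries, and 0 to 0 with each library left out. WT minus shPax6 had 10, and 6 after the length correction. Of the 22 transcripts, JNK3 KO had 7 called, and 3 under quantile normalization, 1 after the length correction, 0 without the trend, 4 with the replicate block, 0 with its own spread and 3 to 4 with each library left out. shPax6 had 12, and 7 after the length correction, 1 without the trend and 0 with its own spread. Replicate numbers did not pair libraries (correlation of same-numbered deviations -0.0973 to 0.0858 over 15 pairs, 0 above 0.1), and the replicate block changed no other of these counts by over 1.5 times.

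Directions turned in the following cases, in log2, among values called in the reported fit or in the alternative (those called in neither, such as Pfkp in WT minus JNK3 KO at -0.29 under TPM, are left out). Under TPM in WT, Pfkl was -0.40, Pfkp -0.44, Aldoa -0.05, Aldoc -0.27, Pgk1 -0.50 and Pkm -0.07, and transcripts Pfkl-201 -0.16, Pfkp-201 -0.44, Aldoa-201 0.00 and Pgk1-201 -0.50. WT minus shPax6 was -0.35 for Aldoa, -0.30 for Eno1 and -0.27 for Pkm, and WT minus JNK3 KO -0.15 for Pfkl and -0.18 for Pgk1. On coding transcripts of 1 kb or more, WT Hk1 was 0.19, Hk2 -1.28 and Aldoc -0.62, WT minus shPax6 Hk2 -1.26 and Aldoc -0.08, and WT minus JNK3 KO Hk1 0.16 and Hk2 -0.92. With each library rescaled to a common total of that sum these were 0.06, -1.41 and -0.76, then -1.41 and -0.23, then Hk2 -1.10. After the length correction, WT Hk1 was 0.12, Aldoa 0.00, Aldoc -0.08 and Pgk1 -0.18, WT minus shPax6 Hk1 0.03, Pfkl 0.20, Pfkp 0.32 and Aldoa -0.14, WT minus JNK3 KO Hk1 0.03, and transcripts Hk2-201 0.22, Hk1-202 1.10 and Pfkp-207 0.90. Under quantile normalization, WT Pfkl was -0.51, Pfkp -0.63, Aldoa -0.63, Aldoc -0.61, Pgk1 -1, Eno1 -0.74, Pkm -0.92 and Ldha -0.72, with transcripts Pfkl-201 -0.46, Pfkp-201 -0.64, Aldoa-201 -0.57, Pkm-201 -0.45, Ldha-202 -0.67, Hk1-201 -0.38, Eno1-202 -0.65 and Pgk1-201 -1.19. It gave shPax6 Hk1 -0.04, JNK3 KO Eno1 0.02 and, under PBS, JNK3 KO Eno1 -0.03. WT minus shPax6 was then -1.24 for Aldoa, -1.15 for Eno1, -1.11 for Pkm and -0.61 for Ldha, WT minus JNK3 KO -0.39 for Pfkl, -0.55 for Pfkp, -0.35 for Aldoa, -0.74 for Pgk1, -0.77 for Eno1, -0.71 for Pkm and -0.62 for Ldha, and shPax6 minus JNK3 KO -0.01 for Ldha. The cause was not tested.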
